A study of Homo sapiens with 3 samples.

Results

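Aldehyde dehydrogenases are the enzymes whose activity is commonly used to mark stem-like tumour cells, and the promoter windows of 10 of their genes were read in a chromatin immunoprecipitation (ChIP-seq) study of PAF1 and PHF5A. The genes were chosen by symbol: ALDH1A1, ALDH1A2, ALDH1A3, ALDH1B1, ALDH1L1, ALDH1L2, ALDH2, ALDH3A1, ALDH3A2 and ALDH3B1. Each had 1 window, so the 10 genes were 10 of 57997 symbols in 60123 windows. The cells were SW1990, an established human line of pancreatic ductal adenocarcinoma, in a population labelled SP. There were 3 libraries, all from chromatin fixed with formaldehyde (0.4%) and EGS (1.5 mM). Of these, 1 was precipitated with an antibody to PAF1, a subunit of an RNA polymerase II elongation complex that the sample title calls PD2, and 1 with an antibody to PHF5A, a subunit of the SF3b splicing complex. The remaining library, titled input, was not analysed here. The series title links PAF1, PHF5A and DDX3 to stemness in pancreatic cancer.

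Aldehyde dehydrogenases oxidise aldehydes to carboxylic acids with a nicotinamide cofactor. The ALDH1A enzymes turn retinaldehyde into retinoic acid, the ligand of the retinoic acid receptors, and much of the activity measured in dye-based assays of stem-like cells is credited to them. ALDH1L1 and ALDH1L2 act in folate metabolism, ALDH2 and ALDH1B1 remove acetaldehyde in mitochondria, and ALDH3 enzymes clear medium- and long-chain aldehydes, among them products of lipid peroxidation.

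Each value is the mean signal of 1 window of hg38 that begins 2000 bp before a start site and ends 500 bp after it, in the units of the deposited table. The median symbol had 4.11 with PAF1 and 4.30 with PHF5A, and the median protein-coding symbol 3.64 and 3.91. Summed over the 150 bp bins of all windows, with overlapping windows each counted, the sums were 4810550 and 4891420 (rounded to 6 digits). The PHF5A sum is of values divided by 1.00608, a factor inferred from the values. The totals were nearly equal, which need not mean equal numbers of reads. There was 1 library per antibody and so no replicate against which to judge a difference. The error given after ± is a counting standard error widened by a dispersion of 4.33, taken from how windows divided between the 2 libraries. It therefore includes true differences between the antibodies, and it does not measure variation between replicates. Signal over a promoter is not expression, so the labelled cell type could not be checked with its markers. The 7 ductal epithelial marker genes read for completeness had medians of 5.44 and 4.52, and 5 marker genes of fibroblasts, pericytes, leukocytes and endothelium 4.94 and 6.53.

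The position of each window decides what its value describes, and for 4 of the 10 genes the window missed the gene start that RefSeq gives. The ALDH1A1 window (ENSG00000165092, minus strand, chromosome 9, 73079942 to 73082442) lay around a start site 127389 bp upstream of the RefSeq start at 72953053, and no RefSeq gene overlapped it. The ALDH1A2 window (ENSG00000128918, minus strand, chromosome 15, 58497366 to 58499866) lay 432155 bp upstream of the RefSeq start at 58065711, inside the extents of LIPC, the hepatic lipase gene, and of LIPC-AS1. The ALDH1A3 window (ENSG00000184254, plus strand, chromosome 15, 100875714 to 100878214) ended 1617 bp before the RefSeq start at 100879831 and overlapped the long noncoding RNA gene GCAWKR. The ALDH3A1 window (ENSG00000108602, minus strand, chromosome 17, 19748443 to 19750943) stopped 145 bp short of the RefSeq start at 19748298.

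The other 6 windows held the RefSeq start, at 0 bp from the table's own start site for ALDH3A2 and at up to 119 bp for ALDH1L2. Among 18002 protein-coding windows matched to RefSeq, 81.9% held the RefSeq start, and 250 (1.39%) lay more than 100 kb from it. ALDH1A1 and ALDH1A2 both belong to these 250. Windows that held the RefSeq start had a median of 3.55 with PAF1 and 3.85 with PHF5A, and the 3260 that missed it had 4.11 and 4.30, so windows at annotated starts were not the higher ones in this table.

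**Figure D1:**
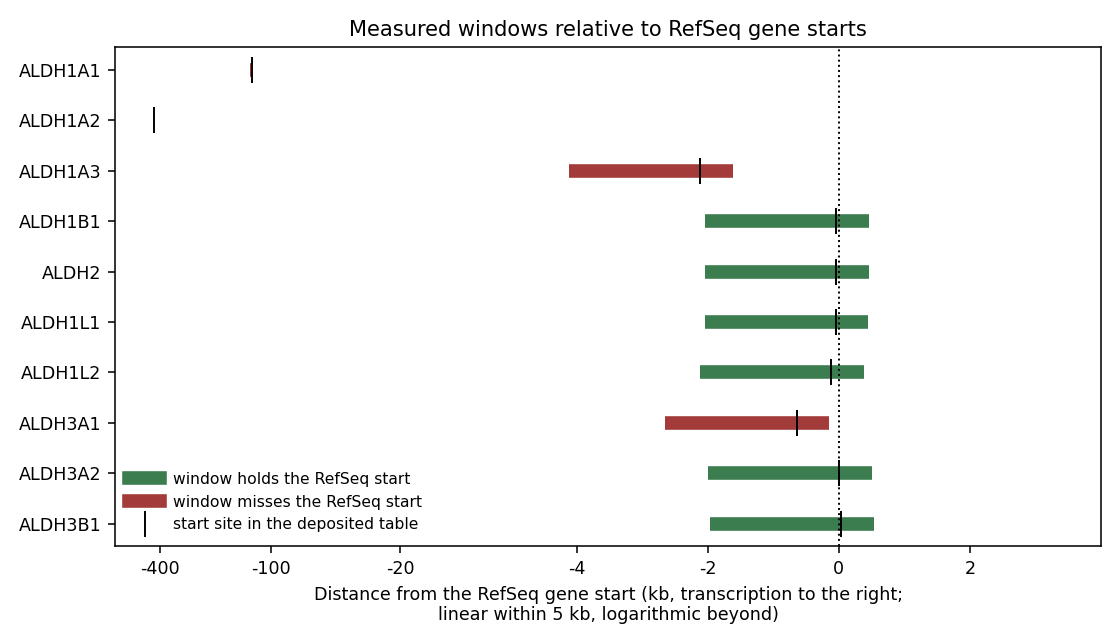
Position of the 10 measured windows relative to the RefSeq gene start (dotted line at 0; axis in kb, linear within 5 kb and logarithmic beyond, transcription to the right). Green bars hold the RefSeq start and red bars miss it; black ticks mark the start site of the deposited table, and the windows of ALDH1A1 and ALDH1A2, 127389 and 432155 bp upstream, are narrower than or close to the width of their ticks on this scale.

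RefSeq promoter sequences (GRCh38.p14) were given for 7 of the 10 genes, and not for ALDH1L2, ALDH2 and ALDH3A1. The 250 bases before the start are printed 5′ to 3′ on the gene's strand for 3 genes whose window holds the start and for the 3 retinaldehyde genes, whose own windows do not. Both entries of ALDH1L1, with starts at 126180586 and 126181186, lie wholly outside its window and are not printed. A further entry of ALDH1A2, with its start at 58014023, also lies outside its window and is not printed. Capitals mark the TATA box TATAAA, the CCAAT box and the GC box GGGCGG, searched on both strands; no match overlapped one of a different motif. In the 250 bases upstream TATAAA occurred in 10.7% of 35116 promoter entries, CCAAT in 32.0% and GGGCGG in 42.6%. ALDH3A2 (chr17:19647886-19648135, plus strand) had the highest signal of the family and ALDH3B1 (chr11:68008297-68008546, plus strand) the lowest, and neither entry, each at the start that the window holds, had any of the motifs. RefSeq gives a further entry for both. That of ALDH3A2 (start at 19648751, chr17:19648501-19648750) had 1 CCAAT and 4 GGGCGG matches, and 136 of its 250 bases, with 2 of the GGGCGG matches, lie in the window. That of ALDH3B1 (start at 68010327) had 2 GGGCGG matches and lies outside the window. ALDH1B1 (chr9:38392452-38392701, plus strand) had 2 GGGCGG matches and 1 CCAAT match.
ALDH3A2: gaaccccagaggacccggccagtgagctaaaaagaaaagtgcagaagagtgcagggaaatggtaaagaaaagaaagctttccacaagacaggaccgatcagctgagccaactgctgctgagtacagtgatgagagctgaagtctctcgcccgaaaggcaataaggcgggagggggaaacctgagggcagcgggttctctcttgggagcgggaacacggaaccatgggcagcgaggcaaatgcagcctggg
ALDH3A2, further start: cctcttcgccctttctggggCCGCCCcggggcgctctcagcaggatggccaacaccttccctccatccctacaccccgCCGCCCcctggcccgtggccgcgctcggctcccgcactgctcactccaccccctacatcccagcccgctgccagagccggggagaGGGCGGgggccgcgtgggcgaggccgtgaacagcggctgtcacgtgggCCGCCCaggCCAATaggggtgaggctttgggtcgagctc
ALDH3B1: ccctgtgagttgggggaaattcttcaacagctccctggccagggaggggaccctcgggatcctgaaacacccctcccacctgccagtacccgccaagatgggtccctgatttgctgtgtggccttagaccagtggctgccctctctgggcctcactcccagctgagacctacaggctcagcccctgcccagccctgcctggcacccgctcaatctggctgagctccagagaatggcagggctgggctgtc
ALDH1B1: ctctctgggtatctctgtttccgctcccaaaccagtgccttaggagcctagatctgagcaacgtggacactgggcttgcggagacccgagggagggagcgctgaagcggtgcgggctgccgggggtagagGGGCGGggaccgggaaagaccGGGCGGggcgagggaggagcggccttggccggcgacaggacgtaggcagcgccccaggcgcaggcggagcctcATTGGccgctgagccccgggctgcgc
The sequences of ALDH1A1 (chr9:72953054-72953303, minus strand), ALDH1A2 (chr15:58065712-58065961, minus strand) and ALDH1A3 (chr15:100879581-100879830, plus strand) lie wholly outside the windows that carry these genes' names, and so no value under their names describes them. ALDH1A1 had 1 CCAAT match, ALDH1A2 1 CCAAT and 2 GGGCGG matches, and ALDH1A3 1 CCAAT and 6 GGGCGG matches.
ALDH1A1: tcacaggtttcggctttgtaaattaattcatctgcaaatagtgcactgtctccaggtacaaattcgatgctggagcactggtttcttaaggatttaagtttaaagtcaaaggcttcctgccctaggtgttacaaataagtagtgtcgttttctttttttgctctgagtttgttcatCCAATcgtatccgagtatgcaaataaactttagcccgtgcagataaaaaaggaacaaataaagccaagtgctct
ALDH1A2: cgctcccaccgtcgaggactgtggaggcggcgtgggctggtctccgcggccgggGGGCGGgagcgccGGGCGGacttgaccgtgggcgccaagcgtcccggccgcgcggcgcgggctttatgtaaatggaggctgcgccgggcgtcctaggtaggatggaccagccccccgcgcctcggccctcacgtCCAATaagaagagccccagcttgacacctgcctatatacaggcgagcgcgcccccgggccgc
ALDH1A3: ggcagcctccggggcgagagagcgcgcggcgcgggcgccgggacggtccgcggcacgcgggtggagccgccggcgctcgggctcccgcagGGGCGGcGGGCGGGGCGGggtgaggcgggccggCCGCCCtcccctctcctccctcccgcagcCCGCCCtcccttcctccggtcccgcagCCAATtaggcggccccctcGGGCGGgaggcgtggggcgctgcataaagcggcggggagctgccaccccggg

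Base composition differed among these promoters. Over 300 bases, 250 before and 50 after the start, the GC share was 55.0% for ALDH3A2 at the start its window holds and 73.3% at its further start, against a median entry of 58.7%. It was 63.7% and 66.7% for the corresponding entries of ALDH3B1, and 71.3% for ALDH1B1. Across 12956 symbols whose nearest RefSeq start lies in their window, GC share and signal had a Spearman rho of -0.33 with PAF1 and -0.32 with PHF5A, given as a description since promoters share libraries and regions. Split into 3 equal parts by GC share, the promoters lowest in GC had a median signal of 4.77 and 4.97 and those highest in GC 2.82 and 3.13. The part of base composition in the members' values was not tested.

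The values listed under the retinaldehyde genes are those of windows that miss the RefSeq starts. Among these windows, that of ALDH1A2, which makes retinoic acid in the embryo, was highest, at 6.11 ± 1.21 with PAF1 and 5.30 ± 1.13 with PHF5A. ALDH1A3, the retinaldehyde dehydrogenase often described in tumour cells, had 3.94 ± 0.974 and 4.30 ± 1.02. ALDH1A1, the enzyme most often named as the stem cell marker, had 3.61 ± 0.932 and 3.80 ± 0.959. ALDH1A1 and ALDH1A3 lay at the middle of the table, at percentiles 41.8 and 46.7 of all symbols with PAF1 and 42.0 and 49.8 with PHF5A. ALDH1A2 stood higher, at percentiles 75 and 64.2, but differed from ALDH1A1 by less than 2 standard errors in each library.

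Against the windows within 1 Mb, none nearer than 10 kb, all 3 retinaldehyde genes were above the median of their neighbourhood in both libraries. Folds here and below are of signal + 0.5. ALDH1A1 had 1.48-fold the level of 21 windows with PAF1, a log2 value of 0.57 ± 0.33, and 1.43-fold with PHF5A. ALDH1A2 had 1.42-fold the level of 56 windows in each library, and ALDH1A3 1.19-fold and 1.37-fold the level of 57. No log2 value of the branch exceeded 2 of its standard errors, and no fold reached the 1.5-fold used as the threshold. Of the 21 windows around ALDH1A1, 17 were lower with PAF1 and 18 with PHF5A. With protein-coding windows alone as the reference, of which ALDH1A1 had 4, its fold rose to 1.66 and 2.51. Over 7 definitions of the neighbourhood, ALDH1A1 passed 1.5-fold in 2 with PAF1 and in 3 with PHF5A. ALDH1A2 did so in 1 with PAF1 and 0 with PHF5A, and ALDH1A3 in 0 with either.

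Windows of other genes near the RefSeq starts were read too. The start of ALDH1A2, at 58065711, fell inside the window of CTD-2330J20.2 (58063225 to 58065725), a gene of the opposite strand. Nearly all of this window lies downstream of that start, inside ALDH1A2. The printed promoter sequence of ALDH1A2 lies almost wholly outside it. The CTD-2330J20.2 window had 5.11 ± 1.14 and 4.20 ± 1.04. Each was lower than the value listed for ALDH1A2 by less than the standard error of the latter. The CTD-2330J20.2 window was above the value listed for ALDH1A3 with PAF1 and below it with PHF5A. The ALDH1A2 window itself shared 1631 bp with that of RP11-355N15.1, which had 6.29 ± 1.27 and 5.91 ± 1.23, and reads in the overlap count for both, as ChIP signal has no strand. For ALDH1A1 no window held the RefSeq start, and the nearest, that of LINC01474, was 76944 bp away, with 2.11 ± 0.734 and 2.84 ± 0.853. CYP1D1P, a cytochrome P450 pseudogene between the RefSeq start and the listed start of ALDH1A1, had 3.82 ± 0.986 and 4.20 ± 1.04. ANXA1, the annexin gene 71.3 kb further along from the listed start, had 0.940 ± 0.489 and 1.53 ± 0.628. For ALDH1A3 the nearest window to its start other than its own, 8775 bp away and so further than its own at 1617 bp, was that of RP11-66B24.9, with 2.72 ± 0.809 and 1.78 ± 0.658.

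**Figure D2:**
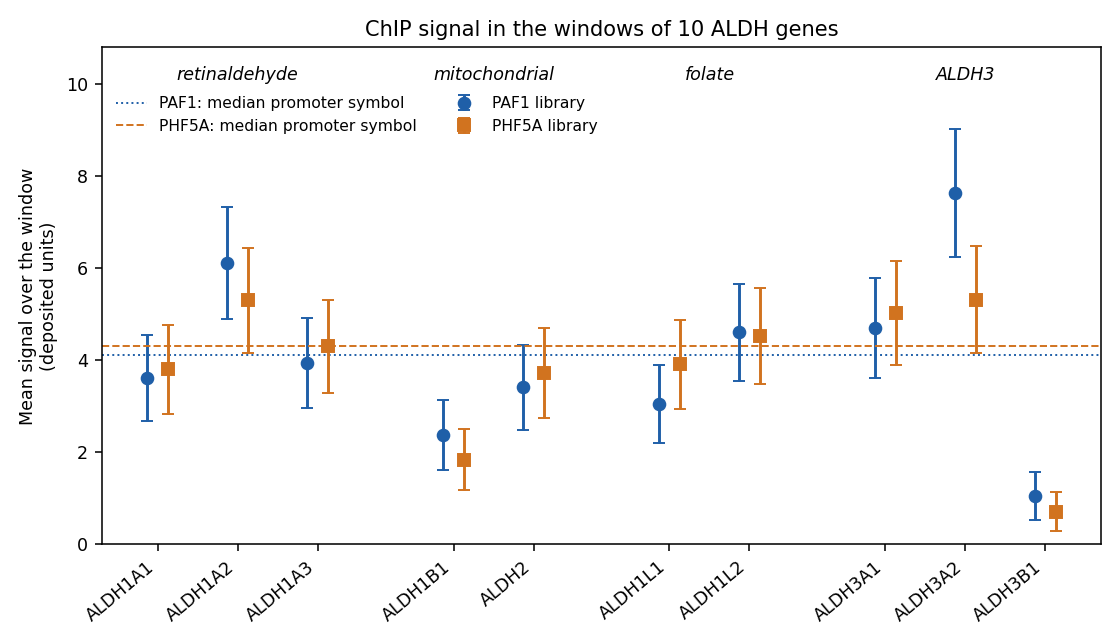
Mean signal of the 10 windows with PAF1 (circles) and PHF5A (squares), in deposited units; bars are counting standard errors of 1 library each, and lines are the median symbols at 4.11 and 4.30. ALDH3A2 is highest at 7.64 and 5.32, and ALDH3B1 lowest at 1.05 and 0.710.

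The mitochondrial acetaldehyde enzymes lay below the median symbol in both libraries. ALDH2 (ENSG00000111275, plus strand, chromosome 12, 111764887 to 111767387), the main acetaldehyde dehydrogenase of the body, had 3.41 ± 0.932 with PAF1 and 3.72 ± 0.977 with PHF5A. ALDH1B1 (ENSG00000137124, plus strand, chromosome 9, 38390664 to 38393164), a close relative of ALDH2 that also accepts retinaldehyde, had 2.38 ± 0.758 and 1.84 ± 0.668. These are 0.625 and 0.488 times the median symbol, at percentiles 23.3 and 14.6. Against their neighbourhoods neither gene stood apart: ALDH2 had 1.04-fold and 1.09-fold the level of 53 windows, and ALDH1B1 1.13-fold and 0.885-fold the level of 54. The windows around ALDH1B1 had medians of only 2.05 and 2.15 (2.145 before rounding), with 4 of them at 0 in both libraries, all more than 500 kb away. The 4 windows nearest to ALDH1B1, up to 85.8 kb away, were all higher than it in both libraries, at 3.83 to 7.47 with PAF1 and 2.29 to 7.63 with PHF5A.

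The folate enzymes were close to the median symbol and to their neighbours. ALDH1L1 (ENSG00000144908, minus strand, chromosome 3, 126197494 to 126199994), the cytosolic formyltetrahydrofolate dehydrogenase, had 3.05 ± 0.857 and 3.91 ± 0.973. ALDH1L2 (ENSG00000136010, minus strand, chromosome 12, 105084077 to 105086577), its mitochondrial counterpart, had 4.61 ± 1.05 and 4.52 ± 1.05. Against the windows within 1 Mb, ALDH1L1 had 0.762-fold and 1.03-fold the median of 59 windows, and ALDH1L2 1.01-fold and 0.946-fold that of 26. The ALDH1L1 window holds the outer RefSeq gene start, but the RefSeq promoter entries for ALDH1L1 are only at starts downstream, 126180586 and 126181186. The closest window to those starts was that of ALDH1L1-AS2, an antisense RNA gene, which had 2.17 ± 0.744 and 3.37 ± 0.929, and ALDH1L1-AS1, at the far end of the gene, had 4.61 ± 1.05 and 4.91 ± 1.09.

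The ALDH3 genes held both ends of the range. ALDH3A2 (ENSG00000072210, plus strand, chromosome 17, 19646136 to 19648636), the fatty aldehyde dehydrogenase that is lost in Sjögren-Larsson syndrome, had 7.64 ± 1.40 with PAF1, which is percentile 86.9, and with PHF5A 5.32 ± 1.17, percentile 64.7. ALDH3A1, a cytosolic enzyme abundant in cornea, had 4.70 ± 1.09 and 5.03 ± 1.13. ALDH3B1 (ENSG00000006534, plus strand, chromosome 11, 68006578 to 68009078), a membrane-bound enzyme that acts on lipid-derived aldehydes, had 1.05 ± 0.519 and 0.710 ± 0.426, percentiles 8.61 and 5.92. By counting widened by the same dispersion, a true signal of up to 0.763 (PAF1) or 0.768 (PHF5A) could be listed as 0 in a window of 17 bins such as this. The PHF5A value of ALDH3B1 lies under that limit, so a true signal of that size could also have been listed as 0. So near 0 the error given is too small.

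ALDH3B1 was low relative to most of its region. The 88 windows around it had medians of 4.28 and 4.55, and ALDH3B1 had 0.324-fold and 0.240-fold that level, with 7 of them lower with PAF1 and 2 lower with PHF5A. UNC93B1, which encodes a trafficking factor of Toll-like receptors and is transcribed away from ALDH3B1, had 6.47 ± 1.28 and 5.50 ± 1.19 in a window (68004482 to 68006982) that shares 404 bp with that of ALDH3B1. NDUFS8, a complex I subunit gene 22.0 kb on the other side, had 6.47 ± 1.28 and 4.91 ± 1.12. Beyond it lay a stretch of low windows, which was chosen after its values were seen. The 6 windows from 30.4 to 205.2 kb downstream of ALDH3B1 had 0.470 to 1.44 with PAF1 and 0.110 to 2.06 with PHF5A. The first of them was that of TCIRG1, a proton pump subunit gene, at 0.470 ± 0.346 and 0.530 ± 0.369, both under the limit of a listed 0. This stretch held 4 of the 7 windows lower than ALDH3B1 with PAF1 and both of those lower with PHF5A. On the log2 scale ALDH3B1 stood at -1.62 ± 0.48 relative to its neighbourhood with PAF1. With PHF5A the value lies under the limit of a listed 0, so no error is given for its fold, and a signal at that limit would be 0.251-fold the neighbourhood.

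ALDH3A1 and ALDH3A2 lie 100.8 kb apart and share 121 neighbouring windows, 96.0% of those of ALDH3A1 and 91.7% of those of ALDH3A2. ALDH3A2 had 3.38-fold and 2.49-fold the median of 132 windows within 1 Mb, log2 values of 1.76 ± 0.25 and 1.32 ± 0.29, and ALDH3A1 had 1.93-fold and 2.28-fold that of 126. This reference was uneven, and the errors given take its median as exact. The 77 windows from 500 kb to 1 Mb around ALDH3A1 had medians of 0.940 and 0.710, and 21 of them were listed at 0 in both libraries, while the 49 windows within 500 kb had 5.33 and 3.96 and none at 0 in both. Of the 59 windows within 500 kb of ALDH3A2, 11 were at 0 in both libraries. Against the nearer windows ALDH3A2 had 1.72-fold and 1.43-fold the median, and ALDH3A1 0.892-fold and 1.24-fold. ALDH3A1 was therefore above or below its neighbourhood with PAF1 depending on the distance used, and ALDH3A2 was above it in each library at both distances.

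**Figure D3:**
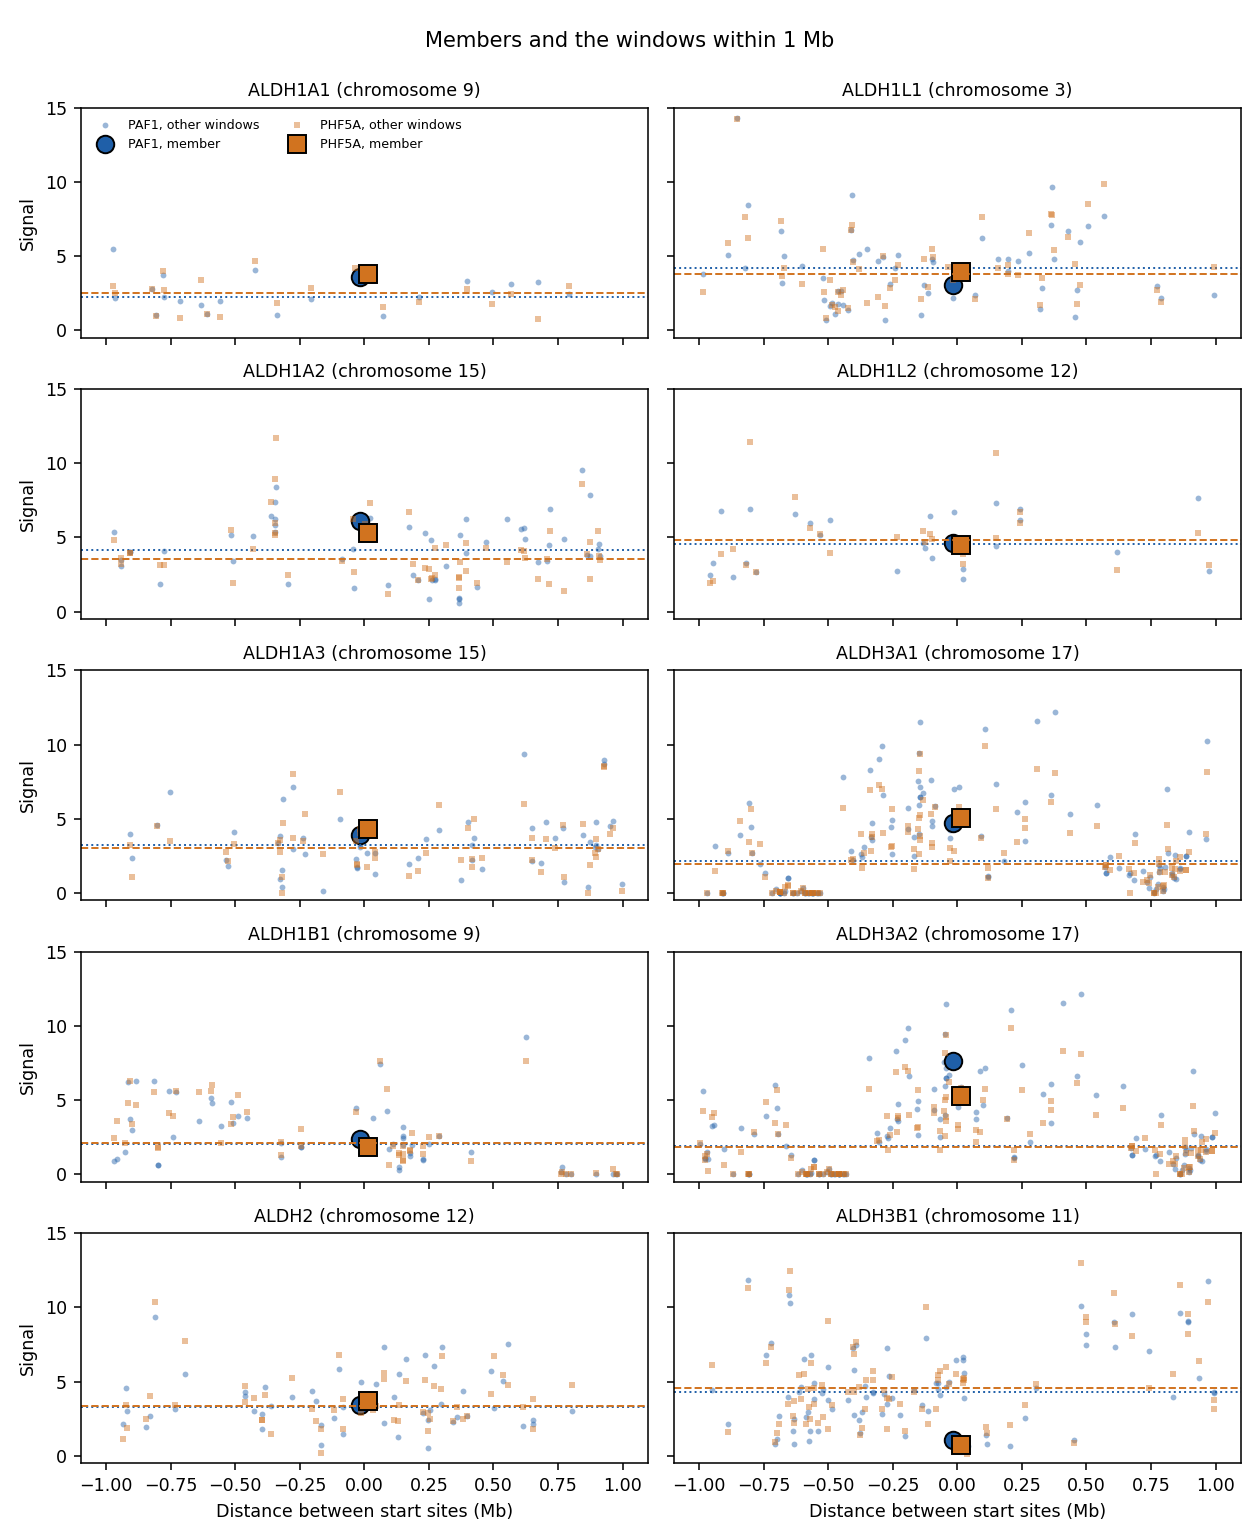
PAF1 (blue circles) and PHF5A (orange squares) signal, in deposited units, of each member (large symbols, set slightly apart sideways) and of the other windows within 1 Mb, against the distance between start sites in Mb. Dotted (PAF1) and dashed (PHF5A) lines are the neighbourhood medians; 21 windows around each of ALDH3A1 and ALDH3A2 are at 0 in both libraries, and ALDH3B1 lies under lines at 4.28 and 4.55.

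Set side by side, the branches overlapped. The windows of all 3 retinaldehyde genes and of ALDH3A1 miss the RefSeq start, so the values below are those of the listed windows. The median signal with PAF1 was 3.94 for the 3 retinaldehyde genes (range 3.61 to 6.11), 2.90 for the 2 mitochondrial genes (2.895 before rounding), 3.83 for the 2 folate genes and 4.70 for the 3 ALDH3 genes (1.05 to 7.64). With PHF5A these medians were 4.30, 2.78, 4.22 (4.215 before rounding) and 5.03, the last over a range of 0.710 to 5.32. The 10 genes together had medians of 3.78 (3.775 before rounding) and 4.11 (4.105 before rounding), and 5 of the 10 lay above the median protein-coding symbol in each library. The ALDH3 branch had a wider range than the difference between any of these medians.

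With PAF1, 1 of the 10 genes, ALDH3A2, was at least 1.5-fold above the median symbol, where 21.8% of all symbols were, and 2, ALDH1B1 and ALDH3B1, were at least 1.5-fold below, where 26.1% were. With PHF5A none was above, against 20.0% of all symbols, and ALDH1B1 and ALDH3B1 were below, against 25.3%. Relative to windows within 1 Mb, ALDH3A1 and ALDH3A2 were at least 1.5-fold above in each library and ALDH3B1 at least 1.5-fold below. Of all windows 18.4% were above and 21.8% below by that measure with PAF1, and 16.6% and 20.1% with PHF5A. The members' counts were near those shares of all symbols and windows, or below them. Of protein-coding windows alone, 13.3% were above and 28.4% below their neighbourhood with PAF1, and 12.9% and 24.8% with PHF5A. The members above, ALDH3A1 and ALDH3A2, make 20% of the 10, more than these protein-coding shares. They share most of their reference windows, so they are not separate counts. Of protein-coding symbols, 16.5% were above and 31.2% below the median symbol with PAF1, and 16.1% and 28.4% with PHF5A.

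At 2-fold, no member was above the median symbol in either library, against 8.11% of symbols with PAF1 and 6.76% with PHF5A. ALDH3B1 was at least 2-fold below it with PAF1, against 15.9% of symbols, and ALDH1B1 and ALDH3B1 with PHF5A, against 15.5%. Relative to windows within 1 Mb, ALDH3A2 was at least 2-fold above with PAF1, where 6.14% of windows were, and ALDH3A1 and ALDH3A2 with PHF5A, where 5.09% were. ALDH3B1 was at least 2-fold below in both, where 11.2% and 9.87% were.

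**Figure D4:**
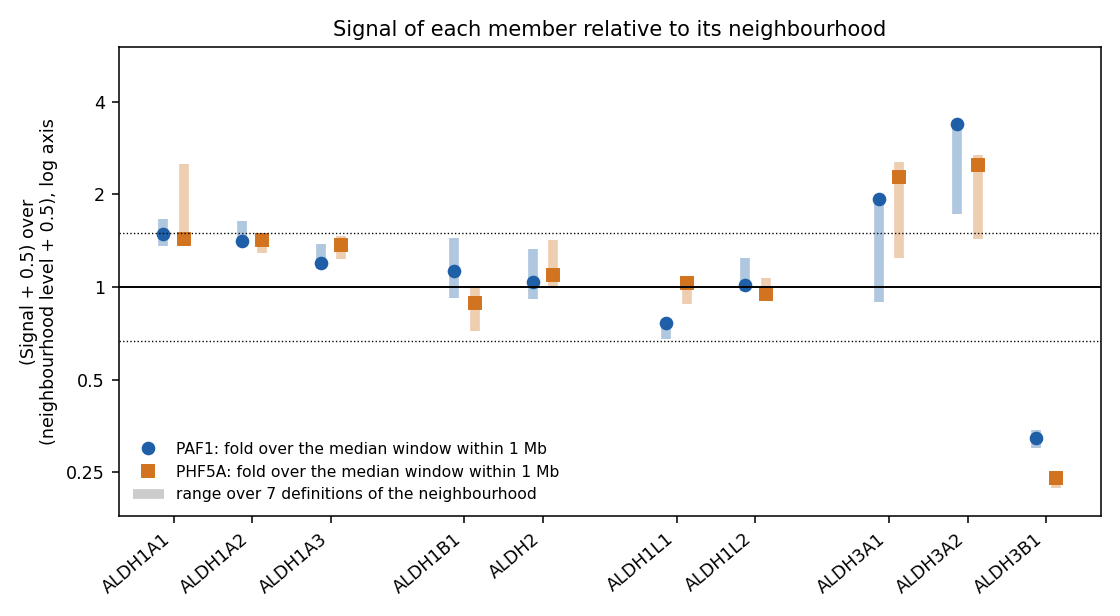
Signal of each gene relative to the median window within 1 Mb, as (signal + 0.5) over (level + 0.5) on a log axis, for PAF1 (circles) and PHF5A (squares); pale bars give the range over 7 definitions of the neighbourhood, and dotted lines mark 1.5-fold. The bars of ALDH3B1 end at 0.344, those of ALDH3A2 begin at 1.43, and the PAF1 bar of ALDH3A1 crosses 1.

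The order of levels was led by ALDH3A2, ALDH1A2, ALDH3A1, ALDH1L2 and ALDH1A3 in both libraries and closed by ALDH1B1 and ALDH3B1 in both. No gene differed from the next in order by more than 1.59 counting standard errors of the difference. Of the 45 pairs of genes, 9 differed by more than 2 standard errors in both libraries. In 7 of these ALDH3B1 was the lower gene, with a PHF5A value under the limit of a listed 0, and in the other pairs ALDH1B1 was lower than ALDH1A2 and than ALDH3A2.

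Next, the signal with PHF5A was compared with that of PAF1 for each gene, each library centred on its median symbol. ALDH3A2 had the widest gap, with PHF5A 0.687-fold of PAF1, a log2 difference of -0.54 ± 0.38, or 1.42 standard errors below 0. The other genes ranged from 0.750-fold for ALDH3B1 to 1.19-fold for ALDH1L1, and ALDH1A1 had 1.00-fold (log2 0.01 ± 0.46). No gene reached 1.5-fold in either direction, while 9.53% of all symbols did so with higher PHF5A and 9.91% with lower PHF5A. The standard errors were 0.38 to 0.70 on the log2 scale, and no gene differed by more than 1.42 of them. Their dispersion comes from the differences between these same libraries, so they cannot decide whether the antibodies differ at a gene.

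**Figure D5:**
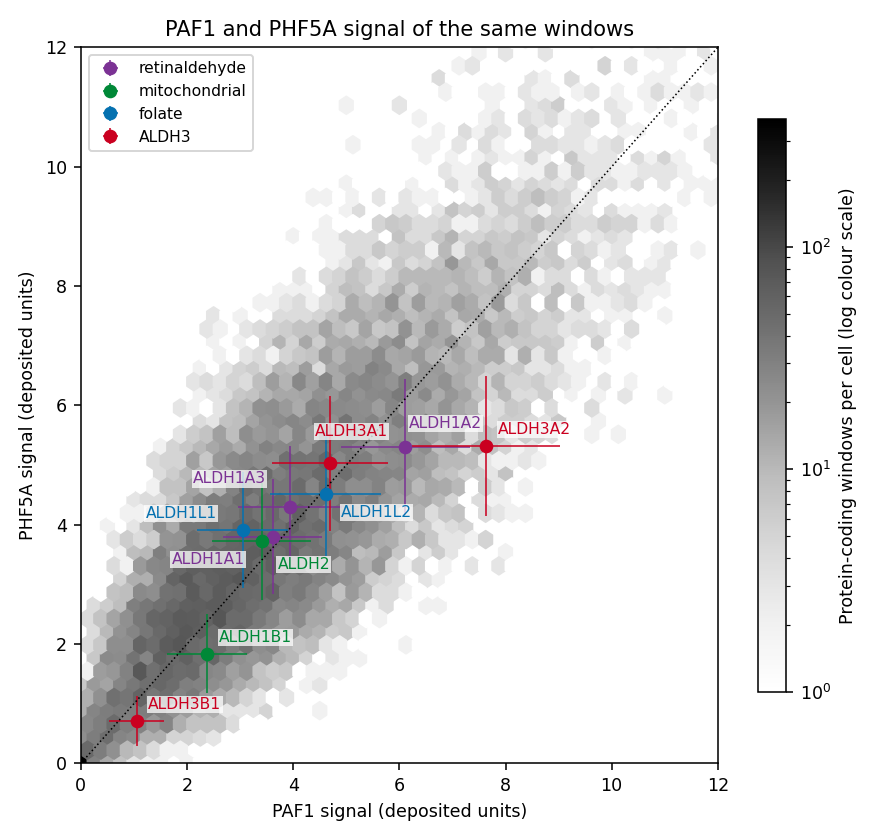
PAF1 against PHF5A signal, in deposited units, of the 10 genes (coloured by branch; bars are counting standard errors) over the density of protein-coding windows (grey, log colour scale); the dotted line marks equal signal. The genes lie along the line, with ALDH3A2 furthest to its PAF1 side at 7.64 and 5.32.

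The values of these genes were common ones in the table. Within 1 standard error of ALDH1A1 in both libraries lay 8610 symbols, and within that of ALDH3A2 lay 3509. The protein-coding symbols nearest to ALDH1A1 by Euclidean distance of log2 signal over the 2 libraries were CRHBP, which encodes a binding protein of corticotropin-releasing hormone, and GMDS, an enzyme of GDP-fucose synthesis, both listed with the same values, followed by the glucuronosyltransferase gene UGT2A3 at a distance of 0.012. Nearest to ALDH3A2 were the pantothenate kinase gene PANK2 at the same values, then the sarcoglycan gene SGCA and the mitochondrial carrier gene UCP2, both at 0.017.

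Genes that act beside these enzymes were read from lists of pathway members. Of 37 genes of retinoid metabolism and signalling, 7 were at least 1.5-fold above the median symbol with PAF1 and 5 at least 1.5-fold below, 18.9% and 13.5%. With PHF5A 12 were above (32.4%) and 5 below (13.5%). Of all symbols, 21.8% were above and 26.1% below with PAF1, and 20.0% and 25.3% with PHF5A. Their median signal was 4.88 and 4.97, above that of all symbols, but the median fold against windows within 1 Mb was 0.985 and 0.991. The retinoic acid receptor gene RARA had the highest mean of both libraries at 10.61 ± 1.6 and 12.96 ± 1.77, the retinoid X receptor gene RXRG followed at 10.4 ± 1.58 and 7.37 ± 1.34, and CYP26A1, which degrades retinoic acid, was lowest at 0.880 ± 0.462 and 0.950 ± 0.479. RARA was also 2.02-fold and 2.14-fold its neighbourhood.

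Of 28 genes of folate metabolism, 5 were above and 7 below with PAF1 (17.9% and 25%), and 5 above and 8 below with PHF5A (17.9% and 28.6%). These shares were close to those of all symbols, 21.8% and 26.1% with PAF1 and 20.0% and 25.3% with PHF5A. Their medians of 3.68 and 4.42 lay beside 4.11 and 4.30 for all symbols, and their median folds against the neighbourhood were 1.03 and 0.994. SLC46A1, the proton-coupled folate transporter gene, had 9.77 ± 1.53 and 13.2 ± 1.79, the folate receptor gene FOLR1 10.9 ± 1.62 and 9.66 ± 1.53, and FTCD, a liver enzyme of histidine breakdown, 0.5 ± 0.347 and 0.670 ± 0.403, both under the limit of a listed 0. The symbol DHFR2 was read under its older name DHFRL1.

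Of the other 9 ALDH genes, 1 was above and 0 below with PAF1, and 1 above and 1 below with PHF5A. Of all symbols, 21.8% were above and 26.1% below with PAF1, and 20.0% and 25.3% with PHF5A. ALDH6A1, an enzyme of valine breakdown on chromosome 14, had 9.82 ± 1.58 and 11.7 ± 1.73, ALDH8A1, an enzyme of tryptophan breakdown, 5.52 ± 1.19 and 4.55 ± 1.08, and ALDH4A1, an enzyme of proline breakdown, was lowest at 3 ± 0.874 and 2.60 ± 0.817. ALDH6A1 was thus above each of the 10 members in both libraries, and its fold against the neighbourhood was 1.46 and 1.62.

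Of 17 alcohol, aldehyde and carbonyl enzymes outside the family, 4 of them alcohol dehydrogenases that the retinoid list holds too, 4 were above and 5 below with PAF1 (23.5% and 29.4%), and 5 above and 4 below with PHF5A (29.4% and 23.5%). The shares of all symbols were 21.8% and 26.1% with PAF1 and 20.0% and 25.3% with PHF5A. The aldo-keto reductase gene AKR1C3 had 8.83 ± 1.46 and 9.72 ± 1.53, GSTA4, a glutathione transferase for lipid aldehydes, 6.88 ± 1.32 and 9.29 ± 1.54, and the carbonyl reductase gene CBR1 0.380 ± 0.306 and 0.830 ± 0.450. The PAF1 value of CBR1 lies under the limit of a listed 0. The median of this list was 4.64 with PAF1 and 4.24 with PHF5A. AKR1C3 belongs to a family of related genes, and whether reads could be placed uniquely in its window was not tested.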

How the data were processed

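The authors deposited the mean signal of the PAF1 and the PHF5A library over promoter windows; the sources used here do not give its normalization, and what 1 unit stands for is not known. Per the submitters' processing notes, the tools were Bowtie2 2.2.3, Picard, Trim Galore, bedtools and deepTools, with hg38; their settings are not known. Per the labels' protocols, IgG was a control, and the library titled input was not analysed here. With a tolerance of 0.0051, all deposited PAF1 signal values (100% of windows) were truncated means of integers across 150 bp genome bins, as were PHF5A values divided by 1.00608. Bin sums gave the counting standard errors, with a dispersion of 4.33 from how 51590 windows free of overlap divided between the libraries. This dispersion includes true differences between the antibodies. A fragment can count in several bins. These errors and the limit of a listed 0 (3 counts times the dispersion) cover counting and that dispersion. They do not cover variation between replicates, and near 0 the errors are too small.

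Windows of the same symbol were averaged. Folds used a pseudocount of 0.5 and a threshold of 1.5-fold. The error of a log2 fold against a median comes from the gene's own signal alone and takes that median as exact. Neighbourhoods were the windows whose start sites lie within 1 Mb and not within 10 kb. Gene types, gene starts and promoter sequences came from RefSeq (GRCh38.p14), matched by symbol and chromosome. Named genes were the 10 members, the highest 2 and the lowest of each list, genes whose windows overlap a member's, and the 3 nearest in signal to ALDH1A1 and to the highest member; windows near the RefSeq starts were named after their values were seen. The members and lists were chosen with earlier results of these data known. With 1 library per antibody, groups were not tested. The scripts were tested on simulated data. The tools were matplotlib 3.10.9, SciPy 1.17.1, numpy 2.4.6 and pandas 2.3.3 under Python 3.11.15.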

Additional observations from a re-analysis of the deposited data

How the results depend on the processing

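In most settings, values for single genes moved by less than about 2 of their counting standard errors. Small folds could change direction within that range. With windows within 500 kb, ALDH3A1 turned from a log2 fold of 0.95 to -0.16 with PAF1, while leaving out only the windows at 0 in both libraries gave 0.69. The number of members at least 1.5-fold above the median symbol with PAF1 went from 1 to 2 against the protein-coding median and to 0 at 2-fold, and the number below from 2 to 1 in both settings. Above the windows within 1 Mb, the count with PAF1 went from 2 to 1 within 500 kb, with the mean and at 2-fold, and to 4 with protein-coding windows alone. With PHF5A it also went from 2 to 1 within 500 kb, but the gene above was then ALDH1A1 at 1.51-fold. ALDH3A1 and ALDH3A2, the 2 genes above within 1 Mb, had 1.24-fold and 1.43-fold there. The count above the windows within 1 Mb was 1 in each library for members whose window holds their RefSeq start, a setting chosen after seeing the data. The branch median against the neighbourhood in place of the median symbol went from 0.963 to 1.42 with PAF1 and from 1.00 to 1.42 with PHF5A for the retinaldehyde genes, and from 1.13 to 1.93 and from 1.15 to 2.28 for ALDH3. At 2-fold, the genes past the threshold went from 12 to 5 (PAF1) and from 17 to 6 (PHF5A) for retinoid genes, from 13 to 7 (PHF5A) for folate genes, from 2 to 1 (PHF5A) for other ALDH genes, and from 9 to 3 (PAF1) and from 9 to 4 (PHF5A) for the remaining enzymes; the higher threshold is the cause by construction. For the other changes the cause was not tested. No paired analysis was possible because each antibody has 1 library.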

Other observations

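Pseudogenes of ALDH7A1, the antiquitin gene, were read after their values were seen. The windows of the pseudogenes ALDH7A1P2 (chromosome 2, 172893883 to 172896383) and ALDH7A1P3 (chromosome 7, 150541598 to 150544098) had 10.11 ± 1.56 and 8.33 ± 1.42 with PAF1 and 8.77 ± 1.46 and 8.27 ± 1.41 with PHF5A, each above all 10 members. ALDH7A1P4 had 7.50 ± 1.34 and 7.43 ± 1.34, and ALDH7A1P1 3.70 ± 0.971 and 3.96 ± 1.01. ALDH7A1 itself had 3.29 ± 0.916 with PAF1 and 5.91 ± 1.23 with PHF5A.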
